A study of Homo sapiens with 12 samples.

Results

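The comparison described here is that of EBF1 against tGFP in the Hodgkin lymphoma cell line L-1236. It was made up of the 3 arrays of L-1236 cells that carried tGFP together with EBF1 and the 3 arrays of L-1236 cells that carried tGFP alone. All 20546 of the 32321 table rows to which the platform annotation gives a gene symbol were used. The series holds 12 arrays, and the other 6 are the same pair of groups in a further Hodgkin line, L-428. Every group was a transduced line kept in culture for 8 days and then sorted for cells positive for tGFP, a green fluorescent protein, so that vector, fluorescence and sort were shared by the EBF1 cells and their controls. In the EBF1 groups the vector linked tGFP and EBF1 through an internal ribosome entry site. The promoter that drives the vector is not given in the labels. The series' design text calls the 3 samples of a group independent and asks for genes that differ between EBF1 and tGFP within each line. It does not say whether the samples came from separate transductions. The p-values measure only the spread between samples within a group, which the fit pooled over all 12 arrays.

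EBF1 is a DNA-binding transcription factor that commits lymphoid progenitors to the B-cell fate and, with E2A and PAX5, switches on genes of the B-cell receptor such as CD79A and CD79B. Hodgkin and Reed-Sternberg cells, from which these lines derive, come from germinal centre B cells, yet they have shut down most B-cell genes and instead make chemokines, cytokines and surface ligands that draw in and restrain T cells. They also depend on NF-kappaB and JAK-STAT signalling.

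Values are deposited log2 signals, and a change is the mean of the EBF1 arrays minus the mean of the tGFP arrays, so that a change of 1 is a 2-fold rise and one of -1 a 2-fold fall. Changes were tested with limma in a fit over all 12 arrays, with Benjamini-Hochberg adjustment over the 20546 rows. Genes said to have risen, fallen or passed had an adjusted p of 0.05 or less in that test. A gene is said to be called when it also changed 2-fold or more, the limits that the design text names. Each value in parentheses after a gene is its log2 change.

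The EBF1 row read 7.24, 7.13 and 7.16 on the 3 control arrays and 13.07, 13.27 and 13.10 on the 3 EBF1 arrays. The nearest EBF1 and control arrays were 5.83 apart, which checks the labels, although the row does not separate the vector's EBF1 from the cells' own. The mean change was 5.97 ± 0.075 (moderated SE, means of 3 arrays each), or 62.8-fold. The annotation also lists PDGFRB for this row, but its 3 RefSeq accessions are all of EBF1.

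The medians of the 6 arrays lay between 7.27 and 7.31. The first principal component of the L-1236 arrays held 55.3% of the variance, with scores from -12.9 to -10.8 on the controls and from 7.79 to 16.4 on the EBF1 arrays. Replicate 1 of the EBF1 group had an interquartile range of 2.17, against 2.26 to 2.31 on the other 5 arrays. The Hodgkin markers TNFRSF8 (CD30), FUT4 (CD15), CD274, CCL17 and TRAF1 were all brighter than 6.99, the 95th percentile of the control signal of 359 olfactory receptor rows, genes expressed chiefly in the nasal lining and taken here as a dim reference. Of B-cell markers, PAX5 read 9.51 in controls, while MS4A1, which encodes CD20, read 5.86 in both groups. All 5 T-cell markers and all of 5 myeloid markers other than CSF1R were below 6.99. Of the defining markers of other cells, 3 of 5 stromal, 3 of 4 epithelial and 1 of 3 erythroid ones were above 6.99, the brightest of each in controls being COL1A1 (7.91), KRT18 (8.13) and KLF1 (7.68). None of 18 stromal and endothelial, 12 epithelial or 12 erythroid and megakaryocyte genes passed.

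**Figure D1:**
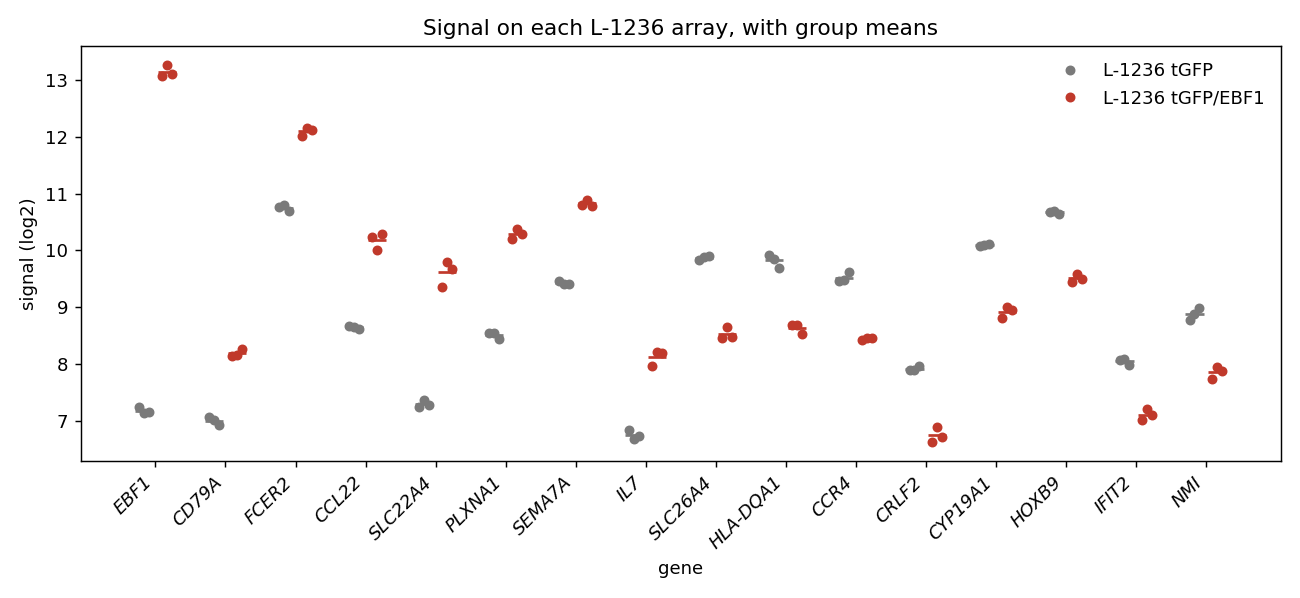
Log2 signal of 16 genes on each of the 3 control arrays (grey) and 3 EBF1 arrays (red) of L-1236, with a bar at each group mean. For every gene drawn the groups are apart, from EBF1 itself at 7.17 against 13.15 to NMI at 8.88 against 7.85.

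A small set of genes changed 2-fold or more and a much larger one changed moderately. Of the 20546 rows 30 were called, or 0.146%, of which 18 were higher (0.0876%) and 12 lower (0.0584%). At 1.5-fold, 114 rows were higher (0.555%) and 94 lower (0.458%). With no limit on the fold, 1981 rows passed (9.64%), 759 higher (3.69%) and 1222 lower (5.95%). Among them 998 changed less than 1.25-fold, 775 between 1.25-fold and 1.5-fold, and 178 between 1.5-fold and 2-fold. In 1959 of the passing rows the 3 EBF1 arrays did not overlap the 3 controls, against 5494 of all rows tested (26.7%). The median SE of a change was 0.0694, and the smallest change that passed was 0.17 in size. Counts of the gene lists below stand beside the shares of all rows, 3.69% higher and 5.95% lower.

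The excess of falls over rises lay among bright genes and moved with single EBF1 arrays. Genes were put into 5 equal groups by control signal. In the brightest group 184 rose and 438 fell, and in the dimmest 47 rose and 13 fell. On EBF1 replicate 1 the median gene of the dimmest group stood at 0.077 relative to the control mean and that of the brightest group at -0.118. On replicate 2 the same medians were -0.0017 and 0.018, and on replicate 3 they were 0.017 and -0.038. Without replicate 1 the counts were 759 higher and 827 lower, and without replicate 2 they were 715 and 1511. The part of either array in single small changes was not tested.

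**Figure D2:**
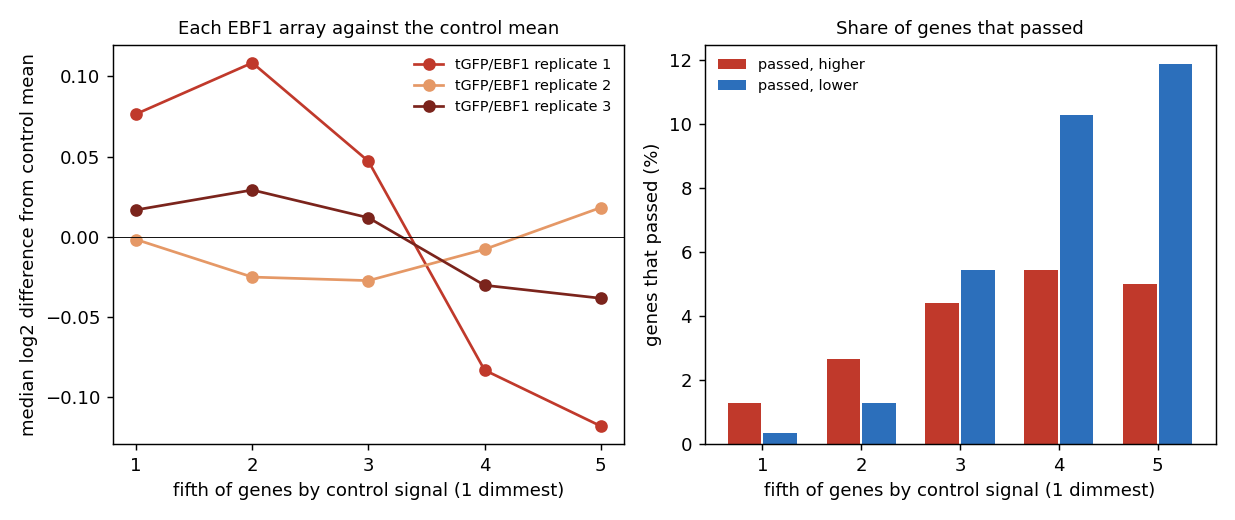
Left, the median difference of each EBF1 array from the control mean (log2) in 5 equal groups of genes ordered from dim to bright control signal, and right, the percentage of genes in each group that passed higher (red) or lower (blue). Replicate 1 falls from 0.077 to -0.118 along the axis, and in the brightest group 11.9% of genes passed lower against 5.0% higher.

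**Figure D3:**
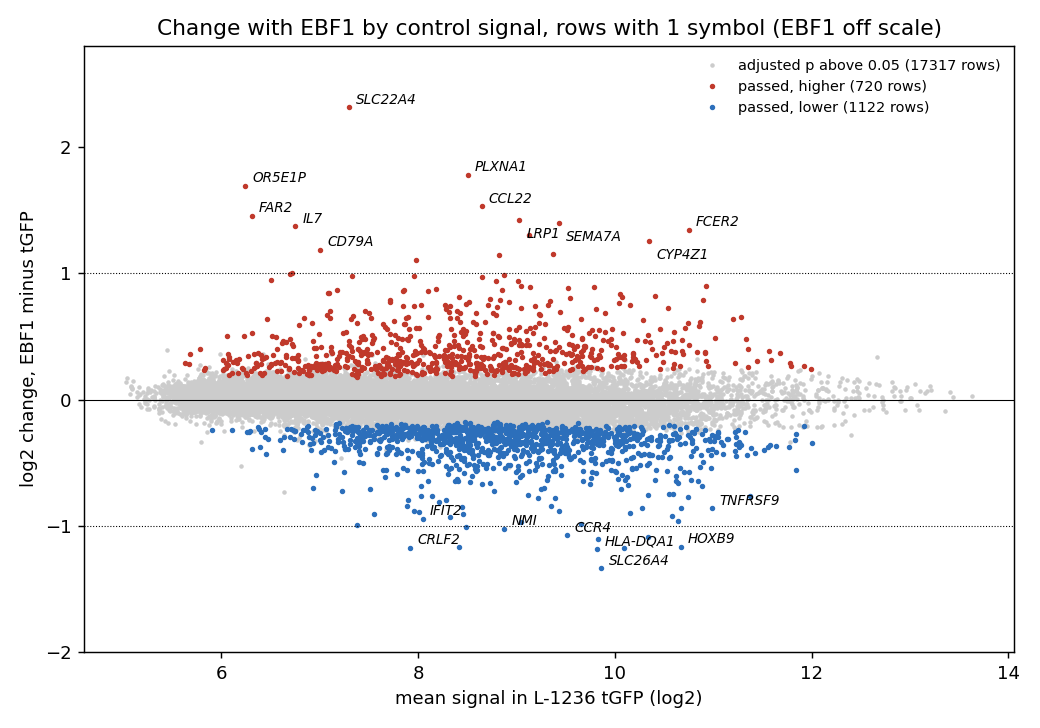
Log2 change with EBF1 (y axis) against mean log2 control signal (x axis) for rows with 1 symbol, with genes that passed higher in red, lower in blue and the others in grey, and dotted lines at 2-fold. The called genes stand outside a dense band in which the 1st and 99th percentiles of all changes are -0.46 and 0.46.

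Of genes of the B-cell receptor and its signalling, CD79A and a row that includes the mu heavy chain were called. CD79A, which encodes the Ig-alpha chain that carries the receptor's signal, read 7.07, 7.02 and 6.92 in controls and 8.14, 8.15 and 8.26 with EBF1. The nearest arrays of the groups were 1.07 apart. The rise was 1.18 ± 0.060 (SE), or 2.27-fold (limma, adjusted p = 2.75e-10). Its partner CD79B, the Ig-beta chain, moved from 7.02 ± 0.044 to 7.28 ± 0.053 (SD, n = 3 each), a rise of 0.26 (limma, adjusted p = 0.0123). Without tGFP replicate 2 its change was 0.24 and no longer passed (limma, adjusted p = 0.0646). The adaptor DAPP1 (0.47) and the phosphatase PTPRC, known as CD45 (0.50), rose as well, and CD22, an inhibitory co-receptor, fell (-0.40). These 5 of 33 measured genes of the list passed, 15.2% against 9.64% of all rows. A row annotated to IGHM, the mu heavy chain, and to a pair of IGHV3 variable segments rose from 6.79, 6.87 and 7.26 to 8.12, 8.42 and 8.47. The change was 1.36 (limma, adjusted p = 1.56e-07), and which of these near-identical segments gave the signal is uncertain.

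Among 35 B-cell surface genes 4 rose and 1 fell. FCER2 encodes CD23, the low-affinity IgE receptor of mature B cells. It read 10.77, 10.79 and 10.69 in controls and 12.02, 12.16 and 12.12 with EBF1. All 3 EBF1 arrays were above all controls, by at least 1.23. The rise was 1.35 ± 0.066 (SE), or 2.54-fold (limma, adjusted p = 1.46e-10). The costimulatory receptor CD40 (0.30) and the chemokine receptor CXCR4 (0.34) rose by less. FCGR2B, the inhibitory IgG receptor of B cells, fell (-0.49), and a brighter row annotated to both FCGR2B and its near-copy FCGR2C fell from 11.64 ± 0.057 to 10.67 ± 0.12 (SD), a change of -0.97. In sorted cells measured in bulk, fewer cells with a transcript and less of it in each cell cannot be told apart.

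Of 20 genes listed as EBF1 targets of early B cells 4 rose and none fell at the adjusted p, while of all rows 3.69% rose and 5.95% fell. They were CD79A, CD79B, CD40 and LEF1 (0.37), a transcription factor of lymphoid progenitors. The median change over the 20 was 0.046, against 0.0094 over all genes. Without EBF1 replicate 1 the count was 4 of 20 again. Among 30 transcription factors of B cells there were 4 rises and 2 falls, with a median of 0.12. RUNX1, a partner of EBF1 at early B-cell genes, read 7.67, 7.72 and 7.73 in controls and 8.49, 8.54 and 8.47 with EBF1. With no overlap between the groups, the rise was 0.79 (limma, adjusted p = 6.67e-07). TCF4, the E protein also called E2-2, fell (-0.45), as did IKZF2, or Helios (-0.30). PAX5 read 9.51 and 9.37 and did not pass (limma, adjusted p = 0.187).

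Of 19 germinal centre and plasma cell regulators 1 rose and 2 fell (15.8%, against 9.64% of all rows). BCL6, the repressor that holds the germinal centre state, was the riser (0.40). GCSAM, a germinal centre signalling adaptor, fell from 10.41 ± 0.071 to 9.78 ± 0.069 (SD), a change of -0.63. Of 24 E-protein inhibitors and factors of other lineages 1 rose and 2 fell. NOTCH1, whose activity opposes B-cell fate, rose from 8.07, 8.21 and 8.01 to 8.75, 8.75 and 8.74, a change of 0.65 (limma, adjusted p = 3.33e-06). The T-cell factor GATA3 (-0.46) and the myeloid factor CEBPB (-0.39) fell.

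Of 20 genes used to mark Hodgkin cells 8 rose and 4 fell (60.0%, the highest share of the 48 lists counted, against 9.64% of all rows). The same 8 and 4 were counted without EBF1 replicate 1, and between 9 and 12 passed when each of the 6 arrays was left out. This list, which holds CCL22, was chosen with earlier results of these data known, so its rank is not independent of them. It is also bright, with a median control signal of 10.15. In the brightest group of all genes 5.0% rose and 11.9% fell. CD274, which encodes PD-L1, read 10.30, 10.21 and 10.34 in controls and 10.85, 11.01 and 10.87 with EBF1. All 3 EBF1 arrays were above all controls, and the rise was 0.63 (limma, adjusted p = 4.12e-06). TNFRSF8, the gene for CD30, rose by 0.51. The T-cell-restraining lectin LGALS1 (0.40), the tumour antigen PRAME (0.40), the growth factor receptor CSF1R (0.36) and STAT6 (0.39) also rose. Among the 4 that fell were GATA3, RGS1 (-0.36), a regulator of G-protein signalling, and FUT4, the gene for CD15 (-0.22). The call of FUT4 (limma, adjusted p = 0.0349) was lost in 7 of 16 alternatives. Several members are also in the chemokine, TNF and JAK-STAT lists below.

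CCL22, a chemokine that attracts regulatory and helper T cells through CCR4, was the most changed of 37 chemokines. Its signal was 8.67, 8.65 and 8.62 in controls and 10.23, 10.01 and 10.29 with EBF1. The nearest arrays of the groups were 1.34 apart, and the rise was 1.53 ± 0.066 (SE), or 2.89-fold (limma, adjusted p = 2.46e-11). CCL18 (0.59) and CCL4 (0.40) rose as well. CCL17, a CCR4 ligand encoded beside CCL22, read 8.11 and 8.25 and did not pass (limma, adjusted p = 0.293). In the opposite direction 6 chemokines fell, among them CXCL10 (-0.58) and CXCL11 (-0.31), interferon-induced ligands of CXCR3.

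The receptor for CCL22 fell in the same cells. CCR4 read 9.45, 9.48 and 9.62 in controls and 8.41, 8.46 and 8.46 with EBF1. The groups did not overlap, with 0.99 between the nearest arrays, and the change was -1.07 ± 0.083 (SE), or 2.10-fold (limma, adjusted p = 8.15e-08). CCR4 was the only chemokine receptor of 21 that was called, and 1 rose and 2 fell at the adjusted p.

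Cytokine genes held 1 large rise. IL7, which encodes the growth factor of B- and T-cell progenitors, read 6.84, 6.68 and 6.73 in controls, below the dim reference of 6.99, and 7.97, 8.21 and 8.20 with EBF1. All EBF1 arrays were above all controls, by at least 1.12, and the change was 1.37 ± 0.070 (SE), or 2.59-fold (limma, adjusted p = 2.92e-10). EBI3, a subunit of IL-27 and IL-35, rose (0.43). IL13, an autocrine growth factor of Hodgkin cells, fell (-0.39). In all 2 of 39 cytokines rose and 4 fell, and without tGFP replicate 1, 2 or 3 or EBF1 replicate 1 the counts were 2 and 1.

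Among 42 cytokine receptors falls were larger than rises, 6 against 2. CRLF2 encodes the receptor chain for TSLP, which signals together with the IL-7 receptor alpha chain. It read 7.90, 7.88 and 7.97 in controls and 6.63, 6.89 and 6.71 with EBF1, so that the EBF1 arrays were all below 6.99. The change was -1.17 ± 0.094 (SE), or 2.25-fold (limma, adjusted p = 1.22e-07). IL3RA, the alpha chain of the IL-3 receptor, fell from 8.01 ± 0.034 to 7.12 ± 0.031 (SD), a change of -0.89. CRLF2 and IL3RA lie close together on the sex chromosomes' shared region, and CSF2RA, measured between them, read 6.47 and 6.41 and did not pass. The IL-2 receptor beta chain IL2RB (-0.68) and the IL-27 receptor IL27RA (-0.40) fell too. CSF1R (0.36) was the larger of the 2 rises.

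Of 35 TNF ligands and receptors 5 rose and 3 fell. TNFRSF9, the T-cell costimulator also called 4-1BB or CD137, read 10.97, 10.99 and 10.99 in controls and 10.05, 10.19 and 10.14 with EBF1. The control arrays differed by 0.022 at most, the groups did not overlap, and the change was -0.86 (limma, adjusted p = 2.72e-07). NGFR, the low-affinity neurotrophin receptor (0.66), TNFRSF8 (0.51), TNFRSF14, or HVEM (0.42), and CD40 (0.30) rose. Without tGFP replicate 2 or 3 the count was 4 higher and 1 lower.

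NF-kappaB genes fell more often than they rose. Of 31 subunits, regulators and targets 7 fell and 1 rose (25.8%, against 9.64% of all rows), with a median of -0.10 over the list. BCL3, a nuclear co-activator of p50 and p52, fell from 10.03 ± 0.087 to 9.40 ± 0.16 (SD), a change of -0.63. NFKBIZ, another nuclear inhibitor-family member (-0.34), TNFAIP8 (-0.35) and TRAF3, a brake on the alternative pathway (-0.29), fell as well. Without EBF1 replicate 1 the counts were 5 lower and 3 higher. On the same replicate bright genes as a whole stood lower, as given above.

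JAK-STAT genes that passed were mainly rises, 6 of 29 against 1 fall (24.1%, against 9.64% of all rows). Even so, the list's median was -0.028 and 12 of its 29 changes were positive. The rises included STAT6, which is activated by IL-4 and IL-13 (0.39), and the feedback gene CISH (0.47). The count fell to 4 without tGFP replicate 2 or EBF1 replicate 1 and to 3 without tGFP replicate 3, with no fall in any of them. Of 34 MAPK pathway and feedback genes 4 rose and 6 fell. DUSP7, a phosphatase that inactivates ERK, was called, at 9.43, 9.31 and 9.35 in controls and 10.49, 10.56 and 10.50 with EBF1. The nearest arrays of the groups were 1.06 apart, and the rise was 1.15 ± 0.077 (SE, limma, adjusted p = 1.34e-08). DUSP2, a phosphatase of the same family, rose (0.27), as did IER2 (0.22) and cyclin D1, CCND1 (0.21). Without tGFP replicate 2 these read 0.26, 0.25 and 0.17, and none passed (limma, adjusted p = 0.0679, 0.0720 and 0.163). Other feedback genes fell, among them SPRED2 (-0.55), DUSP6 (-0.42), DUSP16 (-0.30) and the ERK-dependent factor ETV5 (-0.37). Without tGFP replicate 2 or 3 the counts were 1 higher and 5 lower, without EBF1 replicate 3 they were 1 and 4, and without EBF1 replicate 1 they were 1 and 7.

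Guidance receptors and their ligands held some of the largest changes. PLXNA1, a semaphorin receptor, read 8.54, 8.55 and 8.43 in controls and 10.20, 10.38 and 10.28 with EBF1. The nearest arrays were 1.65 apart, and the rise was 1.78 ± 0.071 (SE), or 3.44-fold (limma, adjusted p = 1.12e-11). SEMA7A, a membrane-anchored semaphorin that binds PLXNC1 and beta-1 integrin, read 9.46, 9.41 and 9.41 in controls and 10.80, 10.88 and 10.79 with EBF1. Its arrays ranged over 0.051 in controls and 0.097 with EBF1, and it rose by 1.40 ± 0.058 (SE), or 2.63-fold (limma, adjusted p = 1.26e-11). Both of its receptors fell. PLXNC1 went from 8.46 ± 0.056 to 7.56 ± 0.086 (SD), a change of -0.90, and ITGB1 from 8.23 ± 0.075 to 7.78 ± 0.14, a change of -0.45. PLXNA3 rose (0.36). In all 4 of 39 semaphorins, plexins, neuropilins and related guidance genes rose and 2 fell.

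Among 21 genes of the LDL receptor family and of scavenger receptors 3 rose and none fell, also without EBF1 replicate 1. LRP1, a large endocytic receptor for lipoproteins and proteases, read 9.02, 9.07 and 8.99 in controls and 10.42, 10.53 and 10.40 with EBF1. The nearest arrays were 1.34 apart, and the rise was 1.43 ± 0.058 (SE), or 2.69-fold (limma, adjusted p = 1.23e-11). OLR1, the receptor for oxidised LDL (0.94), and SCARB1, the HDL receptor (0.72), were the others. Of 29 leukocyte adhesion and migration genes 2 rose and 3 fell. S1PR1, the sphingosine phosphate receptor that directs lymphocyte exit, rose (0.61). The selectin ligand SELPLG (-0.55), ALCAM (-0.54) and JAM2 (-0.48) fell. Outside the list JAML, a junctional adhesion molecule of leukocytes, rose from 6.80, 6.64 and 6.64 to 7.72, 7.65 and 7.71.

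Among class II antigen presentation genes the largest falls were at the HLA-DQ locus. HLA-DQA1, the DQ alpha chain, read 9.92, 9.85 and 9.69 in controls and 8.69, 8.68 and 8.53 with EBF1. All 3 EBF1 arrays were below all controls, by at least 1.00, and the change was -1.19 ± 0.070 (SE), or 2.28-fold (limma, adjusted p = 2.18e-09). A row shared with its near-copy HLA-DQA2 fell by 1.09, and rows annotated to several HLA genes cannot be assigned to 1 of them. HLA-DQB1, the DQ beta chain, fell by 0.55. IFI30, the lysosomal thiol reductase that prepares antigens for class II, rose (0.38). Of 14 measured class II genes 3 fell, HLA-DQA1, HLA-DQB1 and the class II regulator CIITA, and 1 rose. The median was -0.15, and 11 of the 14 changes were negative. Without EBF1 replicate 1 again 3 fell and 1 rose. Of 15 class I and immunoproteasome genes 1 rose and 1 fell, the faller being PSMB8, an immunoproteasome subunit (-0.40).

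Interferon-stimulated genes moved often and mostly down. Of 48 measured, 14 fell and 6 rose (41.7% against 9.64% of all rows), and without EBF1 replicate 1 the counts were 12 and 7. IFIT2, an interferon-induced binder of viral RNA, read 8.07, 8.09 and 7.98 in controls and 7.01, 7.20 and 7.10 with EBF1. The groups were separate, with 0.78 between the nearest arrays, and the change was -0.94 (limma, adjusted p = 6.59e-07). NMI, an interferon-inducible partner of STAT proteins, was called, falling from 8.77, 8.88 and 8.98 to 7.74, 7.94 and 7.87, a change of -1.02 (limma, adjusted p = 1.36e-07). EPSTI1 (-0.66), IFIT3 (-0.60), CXCL10 (-0.58) and the virus-tethering protein BST2 (-0.57) fell too. The 3 largest rises were SAMD9L (0.62), its neighbour SAMD9 (0.43), both brakes on translation, and the guanylate-binding protein GBP3 (0.50). The median over the list was -0.056, and it was -0.031 after quantile normalization, where 15 fell and 11 rose. Outside the list APOL6 (-0.84) and the antiviral adaptor TRIM14 (-0.52) fell.

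**Figure D4:**
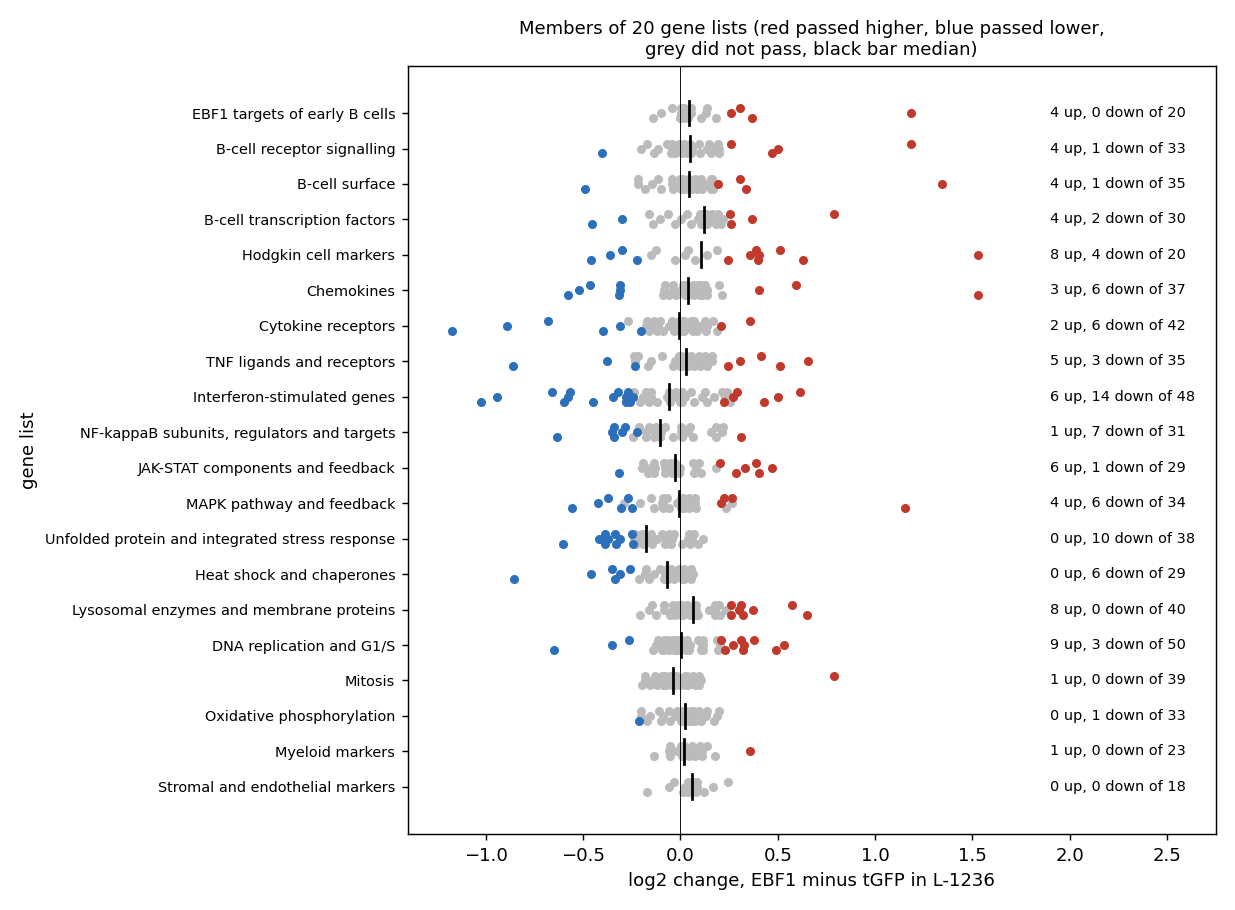
Log2 change of each measured member of 20 gene lists (1 point a gene, red passed higher, blue passed lower, grey did not pass), with a black bar at the list's median and the counts at the right. Interferon-stimulated genes spread from -1.02 to 0.62, and no member of the unfolded protein list passed higher.

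Among 30 innate sensors and their adaptors 2 rose and 4 fell. NOD1, the cytosolic sensor of bacterial peptidoglycan, rose by 0.88, and PYCARD, the inflammasome adaptor, by 0.41. Of 12 phagocyte oxidase genes 2 fell (16.7%, against 9.64% of all rows), while 9 of the 12 changes were positive and the median was 0.049. NCF4, the p40phox subunit, was called, at 8.58, 8.43 and 8.44 in controls and 7.59, 7.34 and 7.49 with EBF1. Its nearest arrays were 0.84 apart, with a change of -1.01 (limma, adjusted p = 1.63e-07). RAC2, the GTPase that activates the oxidase, fell by 0.62.

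Genes of the unfolded protein and integrated stress responses passed only as falls, 10 of 38 (26.3%, against 9.64% of all rows), with a median of -0.18. They included CTH, an enzyme of cysteine synthesis (-0.60), the cystine carrier SLC7A11 (-0.37), the mTORC1 inhibitor DDIT4 (-0.42), the glutathione-degrading enzyme CHAC1 (-0.39) and CEBPB (-0.39). Without EBF1 replicate 1 the count was 7 lower and 0 higher, and after quantile normalization it was 17 lower and 0 higher. The median control signal of the list was 9.74, and in the brightest group of all genes 11.9% fell and 5.0% rose. The part of brightness in this count was not tested. Of 29 heat shock and chaperone genes 6 fell and 0 rose (20.7%, against 9.64% of all rows). The count of falls was 2 without tGFP replicate 2 and 3 without EBF1 replicate 1. HSPA6, an inducible HSP70, read 8.81, 8.60 and 7.93 in controls and 7.53, 7.67 and 7.59 with EBF1. The control values ranged over 0.879, more than the change of -0.85 (limma, adjusted p = 0.000483), although the groups did not overlap. HSPA13 fell by 0.46.

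Of 40 lysosomal enzymes and membrane proteins 8 rose and none fell, also without EBF1 replicate 1. CTSS, the cathepsin that processes antigen in B cells, rose from 7.45, 7.57 and 7.54 to 7.94, 8.31 and 8.26, a change of 0.65 (limma, adjusted p = 6.54e-05). ACP2, lysosomal acid phosphatase (0.57), and CTSA, cathepsin A (0.37), rose too. The count was 5 without tGFP replicate 1 and 4 without tGFP replicate 2 or 3 or EBF1 replicate 3. Of 30 autophagy genes 1 rose and 3 fell, the largest fall being CALCOCO2, a cargo receptor (-0.65).

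SLC22A4, which encodes a carrier of organic cations and ergothioneine, had the largest change after EBF1 itself. It read 7.24, 7.37 and 7.28 in controls and 9.35, 9.80 and 9.68 with EBF1. The lowest EBF1 array was 1.99 above the highest control, and the rise was 2.31 ± 0.086 (SE), or 4.97-fold (limma, adjusted p = 3.63e-12). SLC22A5, a carnitine carrier encoded next to it, read 8.81 and 8.91 and did not pass. SLC26A4, or pendrin, an anion exchanger, had the largest fall. It read 9.82, 9.87 and 9.89 in controls and 8.46, 8.65 and 8.48 with EBF1. The groups did not overlap, and the change was -1.34 ± 0.074 (SE), or 2.52-fold (limma, adjusted p = 9.79e-10). Over all 388 solute carriers 22 rose and 23 fell (11.6%).

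Of 34 genes of glycolysis and the hypoxia response 4 rose and 4 fell, also without EBF1 replicate 1. The glucose carrier SLC2A1 (0.58), hexokinase HK1 (0.75) and phosphofructokinase PFKM (0.78) rose. HIF1A (-0.38) and BNIP3L (-0.47), a mitophagy receptor induced by hypoxia, fell. Of 37 genes of fatty acid, ether lipid and eicosanoid metabolism 5 rose and 2 fell. FAR2, a reductase that makes fatty alcohols, was called, rising from 6.25, 6.28 and 6.38 to 7.65, 7.78 and 7.86, a change of 1.46 (limma, adjusted p = 9.67e-11). Its paralog FAR1 fell by 0.32. ACLY, which supplies acetyl-CoA for lipid synthesis, rose from 11.20 ± 0.034 to 11.84 ± 0.071 (SD), a change of 0.64. Of 27 cholesterol genes 4 rose and 3 fell, with rises of SC5D (0.48), LSS (0.44) and the regulator SREBF1 (0.32), and the counts were 3 and 1 without tGFP replicate 2 and 4 and 0 without tGFP replicate 3.

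Cytochrome P450 genes held changes in both directions, with 4 of 53 higher and 3 lower. CYP4Z1, a fatty acid hydroxylase known from breast tissue, rose from 10.44, 10.32 and 10.28 to 11.53, 11.67 and 11.62, a change of 1.26 (limma, adjusted p = 2.18e-09). Its pseudogene CYP4Z2P rose by 1.11 ± 0.12 (SE), and signals of the near-identical copies cannot be told apart on the array. CYP19A1, the aromatase that makes oestrogens, read 10.08, 10.09 and 10.11 in controls and 8.808, 9.004 and 8.953 with EBF1. Its controls ranged over 0.029, and it fell by 1.17 (limma, adjusted p = 4.62e-09). Among 35 genes of steroid and retinoid metabolism 5 rose and 2 fell. Outside these lists VDR, the vitamin D receptor, rose from 8.95, 8.85 and 8.82 to 9.83, 9.83 and 9.92, a change of 0.99. MAOA, a mitochondrial amine oxidase (-0.77), ARG2, mitochondrial arginase (-0.91), and MTARC2, a mitochondrial amidoxime reductase (-1.16), fell.

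Of 39 mitosis genes 1 passed (2.56%). It was PLK1, the mitotic kinase, which read 10.87, 10.91 and 10.90 in controls and 11.69, 11.73 and 11.62 with EBF1. All EBF1 arrays were higher than all controls, and the rise was 0.79 (limma, adjusted p = 1.23e-06). Of 50 genes of DNA replication and G1/S 9 rose and 3 fell, and 8 and 3 without EBF1 replicate 1. The kinase CDK2 (0.53), the replication helicase subunits GINS4 (0.49) and GINS2 (0.38), MCM10 (0.32) and the inhibitor CDKN1A (0.33) rose. Cyclin E1, CCNE1 (-0.35), and the repressor E2F7 (-0.65) fell, E2F7 from 8.51, 8.50 and 8.57 to 7.86, 7.91 and 7.85. ZMAT3, a p53 target like CDKN1A, rose by 0.40, and 3 of 23 p53 targets rose with none falling. When EBF1 replicate 2 was left out, 3 p53 targets rose and 3 fell.

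Of 29 BCL2 family and apoptosis genes 2 rose and 2 fell, counts of 1 and 1 without tGFP replicate 3 or EBF1 replicate 3. BMF, a BH3-only protein that binds and blocks BCL2, read 7.98, 7.98 and 7.92 in controls and 8.87, 8.97 and 8.96 with EBF1. The groups did not overlap, with 0.893 between the nearest arrays, and the rise was 0.98 ± 0.057 (SE), or 1.97-fold (limma, adjusted p = 2.18e-09).

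Centriole and cilium genes passed only as falls, 6 of 51 (11.8%), or 4 without EBF1 replicate 1. Of all rows 5.95% passed lower and 9.64% in either direction. CCP110, which caps centrioles and holds back cilium growth, fell from 10.32, 10.29 and 10.38 to 9.10, 9.36 and 9.27, a change of -1.09 (limma, adjusted p = 2.65e-08). DNAI3, an axonemal dynein component, fell from 9.87, 9.81 and 9.81 to 8.67, 8.85 and 8.67, a change of -1.10 (limma, adjusted p = 5.30e-08). Outside the list CAMSAP2, which stabilises the minus ends of microtubules, fell just short of 2-fold (-0.98). The membrane fusion protein SNAP25 (-0.90), best known from synapses, and the Golgi GTPase RAB30 (-0.97) fell as well.

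Among HOX genes 2 of 27 rose and 1 fell. HOXB9, a homeobox factor of the posterior axis, read 10.68, 10.70 and 10.64 in controls and 9.45, 9.58 and 9.49 with EBF1. The nearest arrays were 1.05 apart, and the change was -1.17 (limma, adjusted p = 1.53e-08). HOXD11 rose by 0.70. Of 494 zinc finger genes named ZNF 7 rose and 29 fell (7.29%), of 55 TRIM genes 3 rose and 8 fell, and of 88 ribosomal protein genes only RPL29 passed (0.48).

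Further called genes belong to none of these lists. CST1, a secreted cysteine protease inhibitor, rose from 9.16, 9.07 and 9.17 to 10.41, 10.24 and 10.65, a change of 1.30 (limma, adjusted p = 1.36e-07). OR5E1P, an olfactory receptor pseudogene, rose from 6.24, 6.28 and 6.22 to 7.89, 7.89 and 8.04, a change of 1.69 (limma, adjusted p = 3.63e-12), while of 359 olfactory receptor rows 5 rose and 6 fell. MAPKBP1, a scaffold of JNK signalling, rose by 1.15. XPNPEP2, a membrane aminopeptidase, rose by 1.00, from 6.72 ± 0.062 to 7.72 ± 0.13 (SD). Just under 2-fold, HIVEP3 (0.94), a zinc finger binder of kappaB sites, the endothelin-converting enzyme ECE1 (0.90), the repressor ZHX2 (0.90), caveolin CAV1 (0.89), LRRC32, the GARP anchor of latent TGF-beta (0.88), WNT5B (0.87), the complement receptor C3AR1 (0.86) and the disulfide-forming enzyme QSOX1 (0.82) rose. CAMK4, a calcium-dependent kinase of lymphocytes (-0.92), and TSC22D3, the glucocorticoid-induced leucine zipper GILZ (-0.85), fell.

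Rows that detect microRNA precursors or host transcripts and carry 1 symbol passed only as falls. Of 179 genes named MIR with a number 7 fell and 0 rose, 3.91% against 9.64% of all rows, while a row shared by MIR4435-2HG and CYTOR rose (0.40). The array reads precursor and host RNA, so none of these values is a level of a mature microRNA. Outside that count, a brighter row fell that is annotated to both MIR155 and its host gene MIR155HG, also known as BIC, which marks Hodgkin cells. That row was chosen after its values were seen. It read 11.41, 11.18 and 11.26 in controls and 10.30, 10.36 and 10.29 with EBF1, with no overlap. The change was -0.97 ± 0.077 (SE), or 1.96-fold (limma, adjusted p = 1.21e-07). MIR21, a precursor raised in many lymphomas, fell from 8.92, 9.08 and 9.17 to 8.35, 8.62 and 8.42, a change of -0.59 (limma, adjusted p = 0.000108). MIR17HG, host of the miR-17 to miR-92a cluster, fell by 0.54. MIR217 (-0.39), MIR32 (-0.37), MIRLET7G (-0.34) and MIRLET7F1 (-0.26) fell by less. Some of these rows were dim. MIRLET7F1 read 6.28 in controls and 6.02 with EBF1, below the dim reference of 6.99 in both groups. MIR32 read 7.08 and 6.71 and MIRLET7G 7.01 and 6.68, so both were just above that reference in controls and below it with EBF1. The rows of MIRLET7F1, MIR32 and MIRLET7G may therefore hold little specific signal. The call of MIR32, whose groups overlapped, was lost in 11 of 16 alternatives, that of MIRLET7F1 in 7 and that of MIRLET7G in 1. Without tGFP replicate 3 none of the 3 passed, and their changes were -0.39, -0.29 and -0.20 (limma, adjusted p = 0.0993, 0.0620 and 0.171).

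The mature sequences encoded by these rows are shown to set apart the families they belong to. They are from RefSeq, GRCh38.p14, with the seed, bases 2 to 8, in capitals. MIR155 and MIR21 have seeds of their own. MIR32 and the MIR92A1 copy inside MIR17HG encode products with 1 common seed, and so do MIRLET7F1 and MIRLET7G, so the 6 sequences fall into 4 seed families.
hsa-miR-155-5p, chr21:25573983-25574006, plus strand: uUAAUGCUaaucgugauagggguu
hsa-miR-21-5p, chr17:59841273-59841294, plus strand: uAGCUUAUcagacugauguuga
hsa-miR-32-5p, chr9:109046272-109046293, minus strand: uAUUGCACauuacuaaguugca
hsa-miR-92a-3p, chr13:91351361-91351382, plus strand: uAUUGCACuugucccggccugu
hsa-let-7f-5p, chr9:94176353-94176374, plus strand: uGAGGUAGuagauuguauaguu
hsa-let-7g-5p, chr3:52268336-52268357, minus strand: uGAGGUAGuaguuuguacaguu

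EBF1 binds a palindromic motif as a dimer, and promoters of the changed genes were searched for TCCC and GGGA with any 2 bases between them, a pattern that is its own reverse complement and so covers both strands. The windows were the 250 bases before and 50 after each RefSeq start, available for 14228 measured genes. The motif was in 1.34% of these windows, in 1.06% of those of genes that passed higher (6 of 564) and in 1.97% of those that passed lower (17 of 865). None of the 12 called risers and none of the 8 called fallers with a window held it. The shorter core, CCC and GGG with 2 bases between them, lies inside it and was in 21.9% of all windows, in 23.2% for risers and in 28.0% for fallers. A form that needs only 1 of the outer T and A was in 9.98%, 9.4% and 12.3%. At 1.5-fold it was in 10.6% for 85 risers and in 21.0% for 62 fallers. The median GC content was 63.0% for all windows, 65.0% for risers and 65.7% for fallers. At 1.5-fold it was 64.7% and 60.8%. The part of GC content in these shares was not tested. A match describes these letters in this window only, and distant sites were not searched.

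The risers with the largest change and a match were PPFIBP2 (0.60), ANK2 (0.57) and PTPN13 (0.56), and the fallers with the largest change and a match were SPRED2 (-0.55) and TRIM14 (-0.52). The matches of PTPN13, PPFIBP2 and SPRED2 are printed in capitals with the bases around them, and the last bases before the starts of CD79A, CCL22 and FCER2, which have neither motif nor core in their windows, are given for contrast (GRCh38.p14, gene strand).
PTPN13, chr4:86594129-86594188, plus strand: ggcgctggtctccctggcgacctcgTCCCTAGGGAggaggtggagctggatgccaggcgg
PPFIBP2, chr11:7513759-7513818, plus strand: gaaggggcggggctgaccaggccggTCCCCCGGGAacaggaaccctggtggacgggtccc
SPRED2, chr2:65432684-65432743, minus strand: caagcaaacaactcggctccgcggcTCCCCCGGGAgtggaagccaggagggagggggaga
CD79A, chr19:41877219-41877278, plus strand: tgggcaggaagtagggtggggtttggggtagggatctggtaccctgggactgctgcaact
CCL22, chr16:57358723-57358782, plus strand: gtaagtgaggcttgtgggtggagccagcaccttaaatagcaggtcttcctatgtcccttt
FCER2, chr19:7702132-7702191, minus strand: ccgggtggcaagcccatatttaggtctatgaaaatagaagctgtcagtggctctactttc

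Some neighbouring genes passed together. Of 18329 adjacent pairs on the RefSeq map 165 passed the same way (0.9%), and 17 runs of 3 or more genes did. Taken singly, 693 of 18405 genes rose and 1078 fell. The number of pairs that these shares alone would give was not computed. The run around LRP1 held NAB2 (0.20, and 0.19 with adjusted p = 0.0968 by limma without EBF1 replicate 3), STAT6 (0.39), LRP1 (1.43) and NXPH4 (0.38). CST4 (0.31, and 0.24 with adjusted p = 0.122 by limma without EBF1 replicate 3), CST1 (1.30) and CST2 (0.74) rose together, and GSTM2 (-0.42), GSTM1 (-0.37) and GSTM5 (-0.84) fell together, but within each of these sets the genes are close paralogs whose signals may not be separable. These runs were named after their values were seen.

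Dim genes give the weakest footing. Of 6238 genes with a control signal below 6.99, 108 rose and 39 fell. Among them 9 rose 1.5-fold or more, including OR5E1P, FAR2, IL7, XPNPEP2, JAML and CCL18, and for these the controls may hold no specific signal, so the folds may understate the change.

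Most changes called in L-1236 were of a different size in L-428, the other line. Among the L-428 controls, replicate 3 had an interquartile range of 2.28, against 2.49 and 2.47 on replicates 1 and 2. With array weights it received 0.13. Only L-1236 arrays were left out in turn, so the part of this array in the differences was not tested. The difference of the EBF1 effects passed for 1061 of all 20546 rows (5.16%) and for 27 of the 30 called ones. In 25 of these the change was the larger in L-1236, which choosing them by their calls in L-1236 favours. SLC22A4 rose by 0.76 there against 2.31 in L-1236 (limma, adjusted p of the difference = 3.51e-07), and CD79A by 0.23 against 1.18 (limma, adjusted p = 1.79e-06). PLXNA1 changed by -0.03 in L-428 against 1.78 (limma, adjusted p = 2.30e-09), and LRP1 fell by 0.31 against a rise of 1.43 (limma, adjusted p = 4.32e-10). SLC26A4 rose by 1.80 in L-428 and fell by 1.34 in L-1236 (limma, adjusted p = 1.72e-12). FCER2 rose further in L-428, by 2.36 against 1.35 (limma, adjusted p = 2.42e-06). CCL22 rose by 1.03 in L-428 against 1.53 (limma, adjusted p = 0.00324). For SEMA7A the changes were 1.31 and 1.40, with a difference of 0.08 (limma, adjusted p = 0.691). CRLF2 fell in both lines, by 1.33 in L-428 and by 1.17 in L-1236, where it ended below the dim reference, so that the size of its fall there may be understated and the difference is not given. EBF1 itself rose by 4.51 in L-428 and by 5.97 in L-1236, and the part of this in the differences was not tested.

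**Figure D5:**
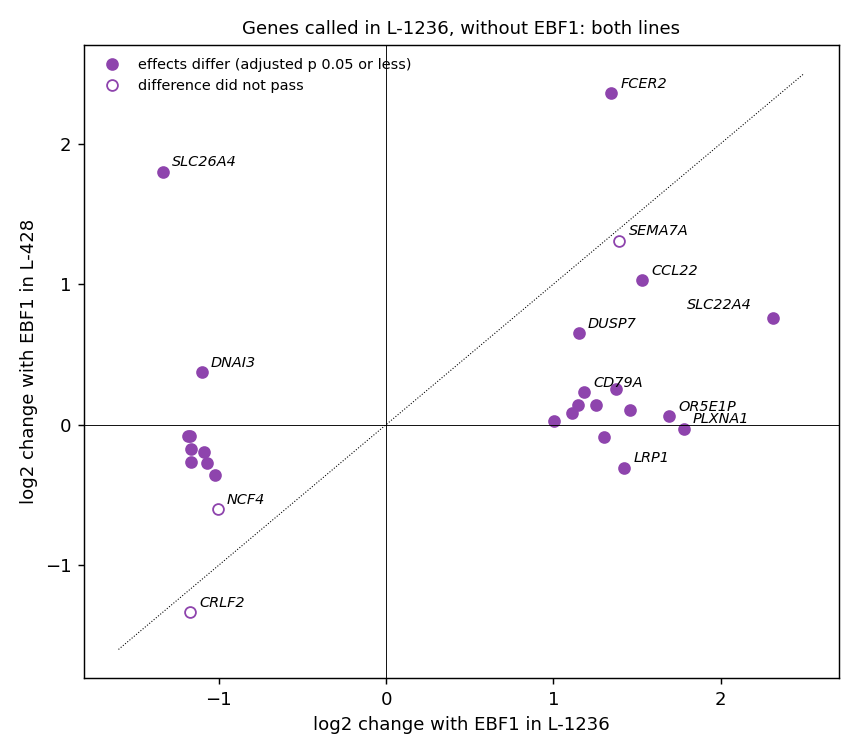
Log2 change with EBF1 in L-428 (y axis) against that in L-1236 (x axis) for the genes with 1 symbol called in L-1236, EBF1 left out, with filled points where the effects differ in limma and a dotted line of equal change. SLC26A4 lies at -1.34 in L-1236 and 1.80 in L-428, and SEMA7A at 1.40 and 1.31.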

How the data were processed

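The authors deposited 1 log2 signal per array and row from 12 Affymetrix whole-transcript arrays, and per the labels' protocols the RNA came from sorted cells and was amplified before labelling. How probes were summarized and normalized, and in which log base, is not given in the sources used here. A logarithm of base 10 or e could not reach these values on a 16-bit scanner, so they are read as log2. Array number limits the precision.

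Of 32321 rows 19159 carry 1 symbol, 1387 several and 11775 none. Gene IDs of 19128 rows with 1 symbol matched RefSeq (GRCh38.p14) and 0 symbols changed. The array's own build is not given, so no array coordinates are printed. The values were fitted as deposited in limma 3.58.1 under R 4.3.3 (lmFit, eBayes, 4 group means, 8 residual and 9.98 prior degrees of freedom). This fit, with p-values adjusted by Benjamini-Hochberg over 20546 rows, gives every adjusted p in the text beside which no other setting is named. The fit was tested on simulated arrays. Of the 48 lists (1331 genes measured) and 20 name families, each gene is given by its brightest row, and lists are described by counts and medians with no set test. Named were EBF1 and the genes given with the comparison, every called row with 1 symbol, and some of the 25 largest changes in each direction between 1.5-fold and 2-fold, up to 6 passing genes of a list and 4 of a family in each direction, dim extremes, promoter matches and the largest differences between lines. Neighbours, microRNA rows, rows with several symbols, DUSP2, IER2, CCND1, COL1A1, KRT18 and KLF1 were added after their values were seen. The members and lists were chosen with earlier results of these data known.

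The counts of rows and the changes of single named genes were recomputed after quantile normalization or median centring, without rows below 6, with all rows, with 1 row per symbol, on the L-1236 arrays alone, with trend and robust variance, array weights or a replicate block, and without each L-1236 array. A limit of 0.01 was tried for the counts in L-1236. Counts of the lists are given after scaling changes and with arrays left out, and those of name families, motifs and neighbours were not recomputed. The difference between lines was not refitted on L-1236 alone. A gene-by-gene form of the weights was added after seeing the data. Python 3.11.15 with matplotlib 3.10.9 drew the figures.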

Additional observations from a re-analysis of the deposited data

Results flagged for a closer look

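Among the 1061 rows whose EBF1 effect differed between the lines by the interaction contrast in limma, 16 of the named genes with 1 symbol are given here, the 8 furthest in each direction. Values are the change in L-1236 minus that in L-428. The negative ones were SLC26A4 (-3.14), DNAI3 (-1.48), TNFRSF9 (-1.23), HLA-DQA1 (-1.10), CYP19A1 (-1.09), SNAP25 (-1.06), CAMSAP2 (-1.03) and FCER2 (-1.01). The positive ones were PLXNA1 (1.81), LRP1 (1.73), OR5E1P (1.64), SLC22A4 (1.56), EBF1 (1.46), CST1 (1.39), FAR2 (1.35) and QSOX1 (1.24). Rows with several symbols also differed, among them that of IGHM (1.46) and that shared by FCGR2C and FCGR2B (-1.04). SLC26A4, DNAI3 and TNFRSF9 fell in L-1236 and rose in L-428, where their changes were 1.80, 0.37 and 0.37. FCER2 rose in both lines, by 1.35 and 2.36. The larger rise of EBF1 itself in L-1236 stands beside all of these values, and its part in them was not tested.

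Rows without a gene symbol were outside the comparison. Of 11775 such rows 190 passed and 4 also changed 2-fold or more in L-1236 when every row of the table was fitted in limma, with a largest rise of 1.84 and a largest fall of -1.17.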

How the results depend on the processing

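The 30 called rows changed little with the processing. Under the 17 alternatives between 29 and 37 rows were called, and 28 to 30 of the 30 were among them. Counts at 1.5-fold lay between 198 (1 row per symbol) and 235. The count with no fold limit moved more. It was 3063 after quantile normalization (1445 higher, 1618 lower), 1131 at an adjusted p of 0.01, 8750 with array weights and 5176 with gene-by-gene weights, which were added after seeing the data. The first weights did not settle and put 36.7 on EBF1 replicate 3. Differences between the lines numbered 1865 after quantile normalization, 676 with all rows, 4538 with array weights and 3194 with gene-by-gene weights. Leaving out 1 array at a time gave 29 to 36 called rows, 1294 to 2226 with no fold limit, 211 to 235 at 1.5-fold and 698 to 1263 differences, and tGFP replicate 2 gave the lowest counts of 1294 and 698. Same-numbered L-1236 arrays deviated from their group means with correlations of 0.28, -0.07 and 0.19. Between a control and an EBF1 array of different numbers the correlations ran from -0.35 to 0.26. So few values cannot decide whether the numbers mark pairs, and the labels do not say. With the replicate block the 4 counts were 30, 1774, 209 and 885. The share of rises among passing rows was 38.3%, and 47.2% after quantile normalization, 41.9% after median centring, 47.7% with array weights, 47.9% without EBF1 replicate 1 and 32.1% without EBF1 replicate 2. In the other fits it lay between 38.1% and 43.1%. Of the rows named in the text that passed, 180 were followed through the alternatives, CIITA not among them. Of these 169 passed in each alternative in which the row was fitted (16, or 15 for the LRRFIP1 row). In at least 1 alternative 11 (CCND1, CD79B, CST4, DUSP2, FUT4, IER2, MIR32, MIRLET7F1, MIRLET7G, NAB2 and TNF) did not pass, and none reversed. Among rows named that did not pass, MS4A1 read 0.014 with array weights and 0.011 with gene-by-gene weights, and leaving out 1 array at a time gave -0.050 to 0.050 for it, -0.10 to 0.0045 for COL1A1, -0.14 to 0.0077 for CSF2RA and -0.26 to 0.0087 for TRAF1.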

Other observations

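Gene families taken by their names add little to the lists. Of 192 small nucleolar RNA genes 2 rose and 11 fell (6.77%), of 71 RAB GTPases 4 rose and 8 fell (16.9%), of 72 histone genes 3 rose and 6 fell (12.5%), and of 42 protocadherins 3 rose and none fell. Of 33 oxidative phosphorylation genes 1 fell, of 28 proteasome core genes 1 fell and of 37 spliceosome genes 1 rose. Without EBF1 replicate 2 the spliceosome counts were 1 higher and 6 lower and the proteasome counts 0 higher and 3 lower. Among 28 T- and NK-cell markers 3 rose and 1 fell (14.3%, against 9.64% of all rows). CD4 (0.48), the granzyme GZMH (0.36) and CD3D (0.32) rose, CD3D from 6.18 to 6.50 and so below the dim reference in both groups. IL2RB fell (-0.68), the largest change of the list in size. Of the 5 T-cell markers checked at the outset, only 1, CD3D, passed.

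LRRFIP1, a nucleic acid sensor and RNA-binding protein, has 10 rows on the array. Their changes ran from 0.18 to 0.82, and the same gene thus gave folds of different size at different probes, with 8 of the 10 past the adjusted p in limma. AKR1C1, an aldo-keto reductase, has 2 rows that rose by 0.67 and read 0.15, the second not passing (limma, adjusted p = 0.199). RAB13 rose by 0.60 on 1 row and by 0.44 on the other, and RPL29 by 0.48 and 0.49. A short run of neighbouring genes, KMO (0.67), OPN3 (0.76) and CHML (0.51), rose together and was named after its values were seen.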
